A study of Mus musculus with 14 samples.

Results

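The genes that cut, export and hand over small RNA precursors were followed in mouse oocytes of 3 mutant groups, labelled *Ago2* ADH, *Ago2* null and *Dicer* KO, and of their controls. The set holds 6 genes, *Dicer1*, *Drosha*, *Dgcr8*, *Xpo5*, *Tarbp2* and *Prkra*, which were listed by name, out of 20337 genes with a symbol in the count files. They have 8 of the 26495 RefSeq transcripts counted, and the transcript with the highest mean count stood for each gene. All 6 genes had counts in all 14 libraries and passed the filter on low counts in all comparisons.

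RNA-seq was performed on full-grown oocytes with an intact germinal vesicle, the nucleus of an oocyte still held before the first meiotic division. They came from females of 4 to 6 weeks that had received 5 IU of equine chorionic gonadotropin 48 h before. The *Ago2* series had 3 *Ago2* fl/fl, 3 *Ago2* ADH and 2 *Ago2* null libraries. *Ago2* fl/fl females carried floxed alleles without Cre. *Ago2* ADH females carried a floxed allele, an allele with a catalytically dead product and the Zp3-Cre transgene (fl/ADH; Cre/+), and *Ago2* null females carried floxed alleles with the same transgene (fl/fl; Cre/+). *Zp3* drives Cre in growing oocytes, so *Ago2* made before excision can persist. The *Dicer* series had 3 *Dicer* WT and 3 *Dicer* KO libraries, the latter from an oocyte-specific deletion whose exons are not given in the sources used here. *Dicer* KO stands throughout for the libraries with that label. Each library pooled 20 oocytes of 3 animals by the labels and 3 or 4 by the study's methods, so a lower level in every oocyte and a loss in some of them cannot be told apart. The background was a cross of 3 transgenic strains, C57BL6 for the most part.

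In the nucleus the Microprocessor, which pairs DROSHA, an RNase III enzyme, with the RNA-binding protein DGCR8, cuts a hairpin out of a primary microRNA (miRNA). Exportin 5, the product of *Xpo5*, carries the hairpin to the cytoplasm, where DICER cuts it to a duplex with the help of the double-stranded RNA (dsRNA)-binding partners TRBP (*Tarbp2*) and PACT (*Prkra*). In mouse oocytes DICER also cuts long dsRNA into endogenous small interfering RNAs without the Microprocessor, and AGO2 uses them to slice matching transcripts. Oocytes mainly use a shorter *Dicer1* form that starts inside the gene. The files count 1 *Dicer1* transcript, so the forms are not separated.

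Total counts ranged from 29380403 to 58285057 per library, where a floor of 3 counts equals 0.0515 to 0.102 counts per 1000000 counts (CPM). *Ago2* had a level of 24.6 ± 0.766 CPM (mean ± SD, n = 3) in *Ago2* fl/fl, 13.0 ± 0.682 CPM (n = 3) in *Ago2* ADH and 6.23 ± 1.32 CPM (n = 2) in *Ago2* null libraries. The 10 oocyte markers were detected in all 5 groups. The 10 granulosa and cumulus cell markers summed to 76.3 to 83.1 CPM in *Ago2* fl/fl, 61.9 to 69.2 in *Ago2* ADH, 57.0 to 59.6 in *Ago2* null, 94.8 to 101.9 in *Dicer* WT and 80.7 to 83.5 CPM in *Dicer* KO libraries. *Foxl2*, a defining granulosa marker, was at 0 in the *Ago2* fl/fl and *Dicer* WT libraries and at most 0.143 CPM elsewhere. *Amh* and *Amhr2* stayed under 1 CPM in all groups. Other markers of that list went the other way. *Cyp19a1* had 30.6 to 36.2 CPM in *Ago2* fl/fl and 48.9 to 57.7 CPM in *Dicer* WT libraries, and *Nr5a2* had 33.5 to 40.8 and 37.9 to 39.3 CPM there. Of 5 theca, stroma, blood and endothelium markers, *Pecam1* alone exceeded 1 CPM. Each *Ago2* genotype had its own sequencing lane, which means that lane cannot be told apart from genotype there, and each *Dicer* library had a lane of its own.

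*Dicer1* was the member with the highest level per length in every group, and *Prkra* the lowest. On the scale of CPM per kilobase of transcript, the level of *Dicer1* was 65.0 ± 1.35 (n = 3) in *Ago2* fl/fl and 76.9 ± 1.84 (n = 3) in *Dicer* WT libraries, above 94.5% and 95.9% of the genes detected there. In *Ago2* fl/fl oocytes the order below it was *Tarbp2* (24.1 ± 1.89), *Drosha* (19.0 ± 0.34), *Xpo5* (9.62 ± 0.675), *Dgcr8* (3.41 ± 0.285) and *Prkra* (0.417 ± 0.192, n = 3 each). In *Dicer* WT oocytes it was *Drosha* (27.2 ± 1.43), *Tarbp2* (11.8 ± 0.92), *Xpo5* (9.14 ± 0.899), *Dgcr8* (3.33 ± 0.247) and *Prkra* (0.207 ± 0.205, n = 3 each). The order was the same in all 3 *Ago2* genotypes and in both *Dicer* groups. The libraries of neighbours in it did not overlap, except for *Tarbp2* and *Xpo5* in *Dicer* KO oocytes, whose mean levels differed 1.11-fold. The place of *Tarbp2* rested on the transcript length used. With its longest annotated transcript it lay below *Drosha* in all *Ago2* groups (13.5 in *Ago2* fl/fl) and below *Xpo5* in both *Dicer* groups (6.60 in *Dicer* WT). The *Dicer1* level rests on its full transcript of 9851 bases, not on the shorter form that oocytes mainly use. A shorter length would make the *Dicer1* level per length higher.

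**Figure D1:**
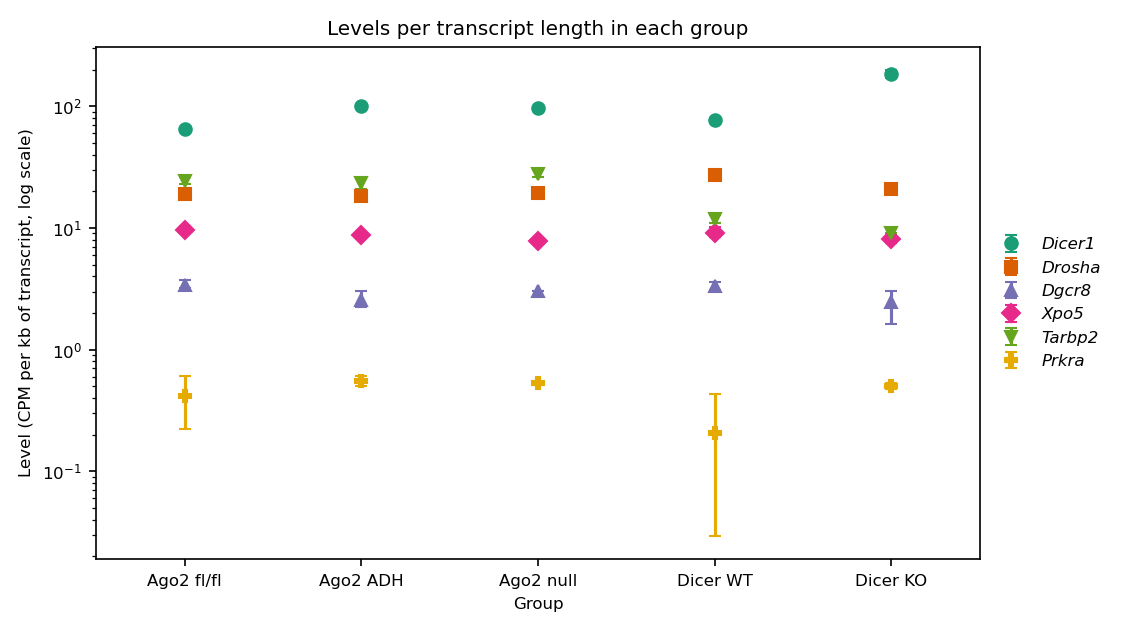
Mean level of each gene in CPM per kilobase of transcript (y axis, log scale) in the 5 groups (x axis), with bars from the lowest to the highest library. *Dicer1* lies highest and *Prkra* lowest in every group, and *Tarbp2* and *Drosha* exchange places between the *Ago2* and the *Dicer* series.

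The first question was which of these genes change in the *Ago2* ADH, *Ago2* null and *Dicer* KO groups. Genes were called as changed where the false discovery rate (FDR) was under 1% in edgeR's quasi-likelihood test over all transcripts that passed the filter. In *Ago2* ADH oocytes 1 of the 6 genes was called, *Dicer1*, which rose, while 40.7% of the 18835 transcripts tested were called in this comparison, 20.5% as higher and 20.1% as lower. In *Ago2* null oocytes it was again 1 of 6, *Dicer1*, which rose, with 37.2% of 19236 transcripts called, 18.1% as higher and 19.1% as lower. In the libraries labelled *Dicer* KO 3 of 6 were called, with *Dicer1* higher and *Drosha* and *Tarbp2* lower, where 34.5% of 18570 transcripts were called, 16.7% as higher and 17.8% as lower. The median log2 fold change of the 6 genes was -0.01 in *Ago2* ADH, 0.15 in *Ago2* null and -0.28 in *Dicer* KO oocytes, against 0.01, 0.00 and 0.00 over all transcripts tested. Between *Ago2* ADH and *Ago2* null oocytes none of the 6 was called, by edgeR or by DESeq2. In that comparison 0.119% of 19306 transcripts were called, 0.0673% as higher and 0.0518% as lower in *Ago2* ADH. Of the 6 genes 1, *Tarbp2*, had an unadjusted p under 0.05 (0.0149), as did 1931 of the 19306 transcripts.

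The libraries of the 2 groups did not overlap for 2 of the 6 genes in *Ago2* ADH against *Ago2* fl/fl (*Dicer1* and *Dgcr8*), where this held for 59.9% of the transcripts tested. It held for 3 genes in *Ago2* null against *Ago2* fl/fl (*Dicer1*, *Dgcr8* and *Xpo5*; 66.9% of transcripts). In *Dicer* KO against *Dicer* WT it held for 5 genes, all but *Xpo5* (54.5%). In *Ago2* ADH against *Ago2* null it held for 3 (*Dicer1*, *Drosha* and *Tarbp2*; 25.9%). The *Ago2* ADH and *Ago2* null comparisons share the *Ago2* fl/fl libraries and are not independent.

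**Figure D2:**
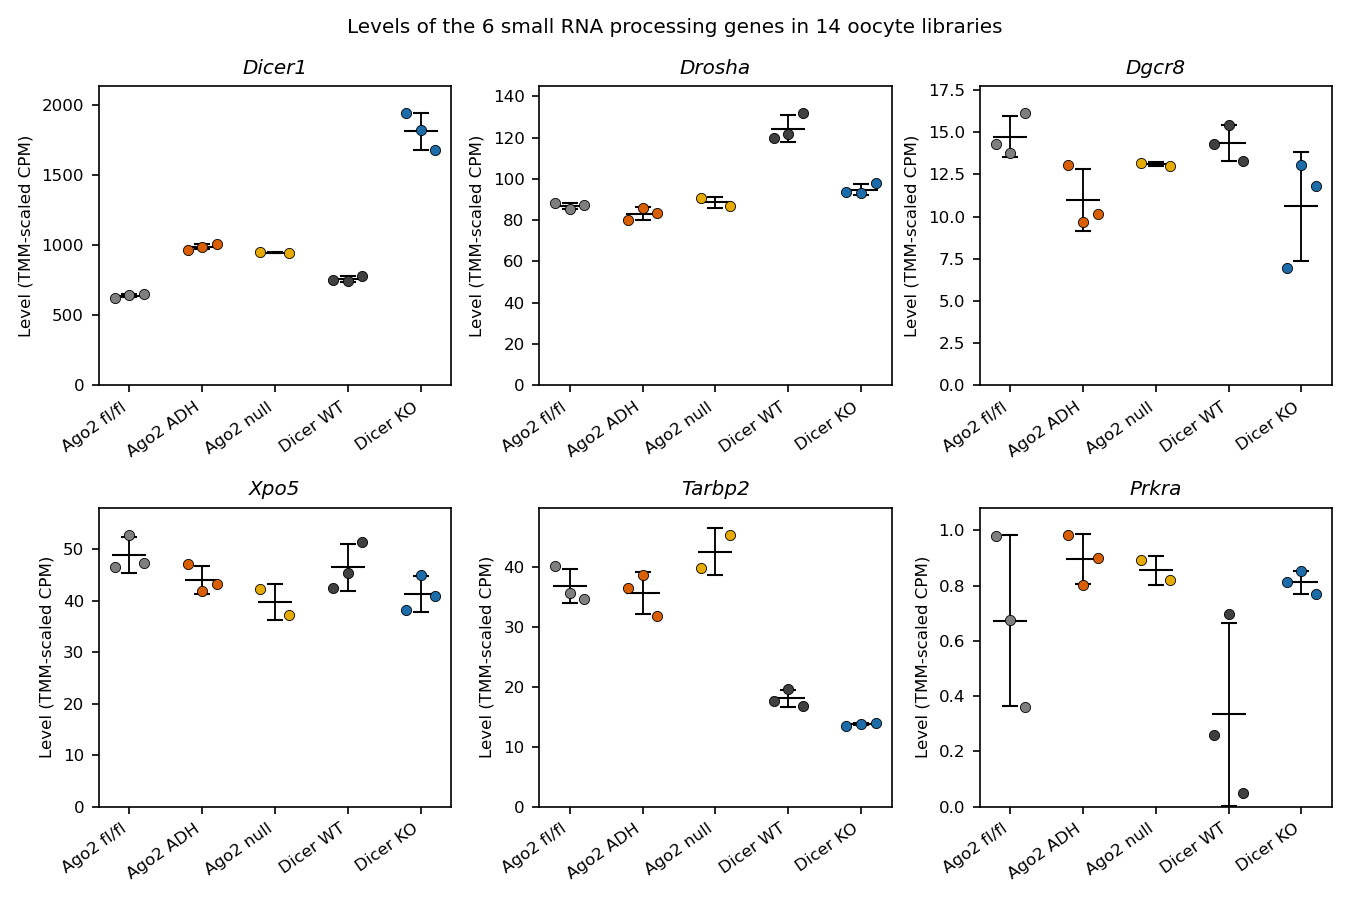
Level of each gene in TMM-scaled CPM (y axis, starting at 0) in each of the 14 libraries (points), with the group mean and SD (bars). For *Dicer1* all mutant libraries lie above those of their controls, for *Drosha* the *Dicer* KO libraries (93.1 to 97.9 CPM) lie below *Dicer* WT (119.6 to 132 CPM), and for *Prkra* all libraries are under 1 CPM.

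*Drosha*, the RNase III enzyme of the Microprocessor, lies on chromosome 15 of GRCm38 (chr15:12824815-12935290, plus strand, 35 exons). Its level was 88.2, 85.2 and 87.5 CPM in *Ago2* fl/fl, 80.1, 86.1 and 83.2 in *Ago2* ADH and 90.6 and 86.6 CPM in *Ago2* null. Both mutant genotypes overlapped the controls, and the *Ago2* ADH libraries lay just below those of *Ago2* null. It had a log2 fold change of -0.02 in *Ago2* ADH (95% interval -0.13 to 0.10) and 0.06 in *Ago2* null oocytes (-0.08 to 0.19), with edgeR adjusted p of 0.808 and 0.468. In the *Dicer* series the level was 119.6, 122 and 132 CPM in *Dicer* WT and 93.6, 93.1 and 97.9 CPM in *Dicer* KO libraries. All 3 *Dicer* KO libraries lay below all *Dicer* WT libraries. *Drosha* fell by 0.39 on the log2 scale (standard error 0.065, 0.761-fold, edgeR adjusted p = 6.27e-05), and the call held under all 14 alternatives, with adjusted p of at most 0.00103. The files hold a second *Drosha* transcript of the same length, whose counts differed from the first in 1 library by 2 counts, so the same reads stand behind both.

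*Dgcr8* encodes the partner that holds the hairpin for DROSHA (chr16:18253948-18289246, minus strand, 14 exons). The Microprocessor is known to cut hairpins within the *Dgcr8* transcript itself, and exon 2 of the transcript counted here holds both of them. The hairpin in the coding part gives miR-1306 and is shown whole. Below it are the mature arms of both hairpins, in which capitals mark the seed, bases 2 to 8 (RefSeq miRNA entries, GRCm38).
miR-1306 hairpin (chr16:18284239-18284317, minus strand): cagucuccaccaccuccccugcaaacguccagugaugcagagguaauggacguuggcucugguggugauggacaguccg
miR-1306-5p: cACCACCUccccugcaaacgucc
miR-1306-3p: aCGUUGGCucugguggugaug
miR-3618-5p, from the hairpin in the 5′ untranslated part: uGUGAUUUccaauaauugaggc
miR-3618-3p, from the same hairpin: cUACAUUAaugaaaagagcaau
The 4 arms have 4 different seeds. The levels of these miRNAs were not analysed here, and the *Dgcr8* count does not measure them. At its 3′ end the annotated gene overlaps *Trmt2a* by 825 bases, and the counting did not use strand. For *Trmt2a* the change was 0.13 in *Ago2* ADH, 0.01 in *Ago2* null and -0.06 in *Dicer* KO oocytes on the log2 scale (edgeR adjusted p of 0.309, 0.933 and 0.763).

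The *Dgcr8* level was 14.3, 13.8 and 16.1 CPM in *Ago2* fl/fl, 13.1, 9.65 and 10.2 in *Ago2* ADH and 13.2 and 13.0 CPM in *Ago2* null libraries. The mutant libraries all lay below the controls, those of *Ago2* null by less than 1 CPM. The log2 fold change was -0.38 in *Ago2* ADH (standard error 0.121, edgeR adjusted p = 0.0138) and -0.14 in *Ago2* null oocytes (0.111, adjusted p = 0.315), neither past the threshold. The *Ago2* ADH value was past it with DESeq2 (adjusted p = 0.00832), with no filter on low counts (0.0046), with library totals in place of scaling factors (0.0074), with the replicate number as a block (0.00824) and without *Ago2* ADH replicate 1, the highest of its group (-0.54, adjusted p = 0.0016). In the *Dicer* series the level was 14.3, 15.5 and 13.3 CPM in *Dicer* WT and 6.96, 13.0 and 11.8 CPM in *Dicer* KO libraries. *Dicer* KO replicate 1 stood far below the other two. The log2 fold change was -0.44 (standard error 0.177, edgeR adjusted p = 0.0479), and -0.22 without that library (adjusted p = 0.234).

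*Xpo5*, the exporter of miRNA precursors (chr17:46202782-46243598, plus strand, 32 exons), holds a snRNA gene, *Gm22474*, and the miR-693 hairpin inside its bounds, neither of which is in the count files. The level of *Xpo5* was 46.5, 52.8 and 47.3 CPM in *Ago2* fl/fl, 47.1, 41.9 and 43.1 in *Ago2* ADH and 42.2 and 37.2 CPM in *Ago2* null libraries. Both *Ago2* null libraries lay below the controls, and *Ago2* ADH overlapped them. In *Dicer* WT it was 42.5, 45.4 and 51.4 CPM and in *Dicer* KO 38.1, 45.0 and 41.0 CPM, with overlap. The log2 fold change was -0.10 in *Ago2* ADH (95% interval -0.25 to 0.05), -0.27 in *Ago2* null (-0.45 to -0.09) and -0.17 in *Dicer* KO oocytes (-0.36 to 0.02), with edgeR adjusted p of 0.256, 0.0148 and 0.133. None was called. The *Ago2* null value was past the threshold without *Ago2* null replicate 1 (-0.36, adjusted p = 0.00612), with no filter (0.00538) and with library totals (0.00939).

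*Dicer1*, the RNase III enzyme that makes both miRNAs and endogenous siRNAs (chr12:104687742-104751952, minus strand, 27 exons), had the smallest adjusted p of the 6 genes in each mutant group. Its level was 625, 643 and 651 CPM in *Ago2* fl/fl libraries, 968, 989.9 and 1006 in *Ago2* ADH and 948 and 943 CPM in *Ago2* null. The lowest mutant library stood well above the highest control. *Dicer1* rose by a log2 fold change of 0.67 in *Ago2* ADH (standard error 0.0434, 1.6-fold, edgeR adjusted p = 2.11e-10) and 0.59 in *Ago2* null oocytes (0.051, 1.51-fold, adjusted p = 6.41e-08). Among the transcripts tested these changes ranked at the 82.9th and 79.8th percentile of signed log2 fold changes. Between *Ago2* ADH and *Ago2* null oocytes the difference was 0.06 (95% interval -0.05 to 0.18, adjusted p = 0.776).

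In the *Dicer* series the *Dicer1* level was 749.8, 745 and 779 CPM in *Dicer* WT and 1943, 1824 and 1679 CPM in *Dicer* KO libraries. The targeted gene was thus higher, not lower, in the libraries labelled *Dicer* KO, by 1.26 on the log2 scale (95% interval 1.12 to 1.39, 2.39-fold, edgeR adjusted p = 6.11e-12), at the 92.7th percentile of transcripts tested. A count over the whole transcript does not show whether the deleted exons were read, so it checks neither the label nor the deletion. The rise in all 3 mutant groups held under all alternatives, 14 in *Ago2* ADH, 13 in *Ago2* null and 14 in *Dicer* KO.

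Members of the let-7 miRNA family are known to act on sites in the coding part of *Dicer1*, and let-7e was among the miRNAs the study assayed in these oocytes. The *Dicer1* transcript (9851 bases) holds 4 matches to the let-7 seed, all in its coding part. They are given here as GENCODE transcript sequence on GRCm38, on the minus strand, with the match in capitals, after the mature miRNA from RefSeq with its seed in capitals.
let-7e-5p: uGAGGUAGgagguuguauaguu
*Dicer1* site at chr12:104706558-104706582: gtcagcctactgtgttCTACCTCtt
*Dicer1* site at chr12:104702803-104702827: atacctgtacaaccaaCTACCTCat
*Dicer1* site at chr12:104702695-104702719: gggaacgctaacacatCTACCTCag
*Dicer1* site at chr12:104694695-104694719: gagatgcgattttggaCTACCTCat
The letters CTACCTC, on the sense strand, stood at least once in 48.6% of the 623 transcripts within 20% of this length and at least 4 times in 1.61%. *Xpo5* had 2 such matches in its coding part, *Tarbp2* 1 in its 3′ untranslated part, and *Drosha*, *Dgcr8* and *Prkra* none. For the seeds of miR-16, miR-20a (shared by miR-106a) and miR-30c, also of miRNAs the study used, *Dicer1* had 0, 1 and 1 matches and no other member more than 2. Their mature sequences follow, with seeds in capitals.
miR-16-5p: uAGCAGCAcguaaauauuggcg
miR-20a-5p: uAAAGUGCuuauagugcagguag
miR-30c-5p: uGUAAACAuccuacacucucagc
The matches are descriptions of the letters, and their part in the levels was not tested. By the study, the miRNAs it assayed were lower in *Ago2* ADH and *Ago2* null oocytes. It also cites earlier work in which miRNA activity was suppressed in full-grown oocytes, and in which oocytes without *Dgcr8* had a normal transcriptome.

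*Tarbp2* encodes TRBP, which binds DICER and steadies its grip on the precursor (chr15:102518459-102523676, plus strand, 9 exons). Its level was 40.1, 35.6 and 34.6 CPM in *Ago2* fl/fl, 36.4, 38.7 and 31.7 in *Ago2* ADH and 39.7 and 45.3 CPM in *Ago2* null libraries. Those of *Ago2* fl/fl overlapped both mutants, and all of *Ago2* ADH lay below *Ago2* null. The log2 fold change in *Ago2* ADH was 0.00 (95% interval -0.17 to 0.17, edgeR adjusted p = 0.994). In *Ago2* null oocytes it was 0.24 (0.06 to 0.42, adjusted p = 0.0292), not past the threshold. It was past it without *Ago2* null replicate 1 (0.33, adjusted p = 0.00969). The difference between *Ago2* ADH and *Ago2* null was -0.26 (-0.46 to -0.06, adjusted p = 0.367).

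In the *Dicer* series the *Tarbp2* level was 17.7, 19.6 and 16.8 CPM in *Dicer* WT and 13.5, 13.8 and 13.9 CPM in *Dicer* KO libraries. Each *Dicer* KO library lay below each *Dicer* WT library. *Tarbp2* fell by 0.40 on the log2 scale (standard error 0.115, 0.76-fold, edgeR adjusted p = 0.00849). The call was lost when any 1 of the 6 libraries was left out, with adjusted p from 0.0112 without *Dicer* WT replicate 3 to 0.0463 without *Dicer* WT replicate 2, and held in 7 of 14 alternatives. The level in the *Dicer* WT libraries was lower than in any *Ago2* library, 18.0 ± 1.4 against 36.8 ± 2.88 CPM (n = 3 each) in *Ago2* fl/fl, a difference between series that was not tested since the series differ in sequencing run. A second *Tarbp2* transcript had nearly the same counts, 2279 against 2326 in *Ago2* fl/fl replicate 1. The annotated *Tarbp2* gene overlaps *Map3k12* by 928 bases. *Map3k12* ends at chr15:102517004, before the counted *Tarbp2* transcript starts at 102518459. It had log2 fold changes of 0.40 in *Ago2* ADH, 0.55 in *Ago2* null and 0.18 in *Dicer* KO oocytes (edgeR adjusted p of 1.96e-06, 9.45e-07 and 0.0276).

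*Prkra*, which encodes PACT, the other dsRNA-binding partner of DICER (chr2:76629898-76648015, minus strand, 8 exons), had the lowest counts of the 6 genes. It had 57, 40 and 19 counts in *Ago2* fl/fl, 54, 44 and 39 in *Ago2* ADH, 50 and 43 in *Ago2* null, 10, 28 and 2 in *Dicer* WT and 25, 24 and 27 in *Dicer* KO libraries. As levels these were 0.0477 to 0.985 CPM, and *Dicer* WT replicate 3 lay under the floor of 3 counts. The controls spread widely, from 19 to 57 counts in *Ago2* fl/fl and from 2 to 28 in *Dicer* WT. Its log2 fold change was 0.46 in *Ago2* ADH (95% interval -0.35 to 1.26), 0.37 in *Ago2* null (-0.56 to 1.31) and 1.27 in *Dicer* KO oocytes (-0.01 to 2.55), with edgeR adjusted p of 0.333, 0.508 and 0.0979. None passed the threshold.

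**Figure D3:**
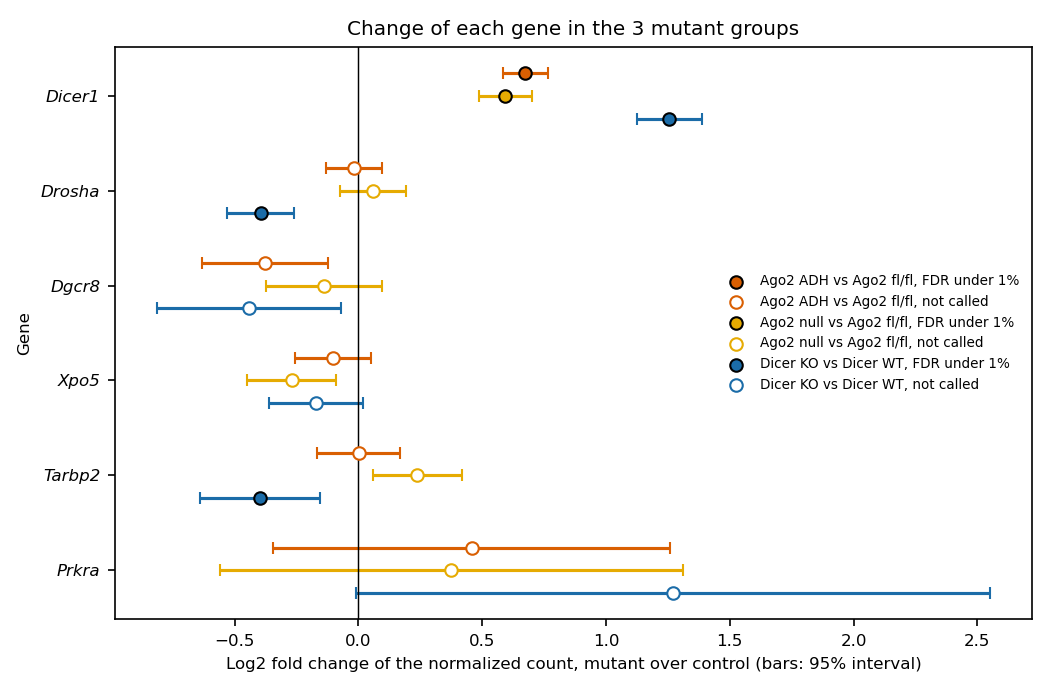
Log2 fold change of each gene in the 3 mutant groups over their controls (x axis), with 95% intervals (bars). Filled points pass an FDR of 1% and open points do not. The *Dicer1* points are filled in all 3 comparisons, at 0.67, 0.59 and 1.26, and *Drosha* and *Tarbp2* are filled only for *Dicer* KO, at -0.39 and -0.40.

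The second question was whether the difference of the libraries labelled *Dicer* KO from their controls differed from that of *Ago2* ADH or *Ago2* null, which was tested as an interaction over the libraries of both series. *Dicer1* rose less in *Ago2* ADH than in *Dicer* KO oocytes by 0.63 on the log2 scale (95% interval of the difference -0.79 to -0.48, edgeR adjusted p = 4.51e-06), 1 call among the 6 genes where 3.55% of 19500 transcripts were called, 1.2% as higher in *Ago2* ADH and 2.35% as lower. With library totals in place of scaling factors the split of calls moved from 234 higher and 458 lower to 346 and 351. For *Ago2* null the difference was -0.69 (-0.86 to -0.53, adjusted p = 1.06e-05), with 3 of 6 genes and 3.01% of 19889 transcripts called, 0.98% as higher in *Ago2* null and 2.03% as lower. There library totals moved the split from 195 higher and 403 lower to 261 and 277. Both differences in *Dicer1* held under all alternatives, 20 and 19 in number. The series differ in sequencing run, and each *Ago2* genotype had its own lane. Genotype and lane therefore cannot be told apart in these differences.

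The fall of *Drosha* in *Dicer* KO oocytes differed from its change in *Ago2* null oocytes by 0.42 (95% interval 0.24 to 0.61, edgeR adjusted p = 0.00538). For *Ago2* ADH the difference was 0.33 (0.16 to 0.50, adjusted p = 0.0147), which missed the threshold but passed it with DESeq2 (0.000717), RLE (0.0088) and library totals (0.00295). *Tarbp2* differed between *Ago2* null and *Dicer* KO oocytes by 0.60 (0.32 to 0.89, adjusted p = 0.00854), and between *Ago2* ADH and *Dicer* KO by 0.35 (0.07 to 0.62, adjusted p = 0.112). The *Ago2* null calls were lost in 8 of 11 fits that left out 1 library, both for *Drosha* (highest adjusted p = 0.0304) and for *Tarbp2* (0.0852). *Dgcr8*, *Xpo5* and *Prkra* were called in neither, with differences of 0.01 and 0.27 for *Dgcr8*, 0.02 and -0.13 for *Xpo5* and -0.87 and -0.93 for *Prkra*.

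The ratios between the transcript counts of these genes moved with these changes, and no protein was measured. Per length, *Dicer1* was 3.42 ± 0.111 times as abundant as *Drosha* in *Ago2* fl/fl (n = 3), 5.52 ± 0.158 times in *Ago2* ADH (n = 3) and 4.95 ± 0.142 times in *Ago2* null oocytes (n = 2). It was 2.83 ± 0.0848 times in *Dicer* WT and 8.89 ± 0.857 times in *Dicer* KO oocytes (n = 3 each). The libraries of each mutant group all lay above those of its controls. The *Dicer1* level per length exceeded that of *Tarbp2* 6.53 ± 0.632 times in *Dicer* WT and 20.5 ± 1.78 times in *Dicer* KO oocytes. The ratio of *Drosha* to *Dgcr8* overlapped between the groups of each comparison except for *Ago2* null, 6.39 ± 0.143 (n = 2) against 5.60 ± 0.408 (n = 3) in *Ago2* fl/fl. These ratios are descriptions of values already given, and the size of those with *Dicer1* rests on the length of its full transcript. In the libraries labelled *Dicer* KO the *Dicer1* count does not show whether the deleted exons were read.

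Several properties of the libraries moved with the mutant groups beside these results. Alignments of reads with several places numbered 0.557 to 0.597 per transcript count in *Ago2* fl/fl, 1.58 to 1.66 in *Ago2* ADH, 1.57 to 1.66 in *Ago2* null, 0.388 to 0.536 in *Dicer* WT and 0.939 to 1.19 in *Dicer* KO libraries. The total count was lower in *Dicer* KO (29380403 to 35777876) than in *Dicer* WT libraries (38469087 to 42646207), and the summed level of the 10 granulosa and cumulus cell markers given above was lower in each mutant group. *Cyp19a1* and *Nr5a2* made up most of that sum. Of the markers tested, 7 in *Ago2* ADH, 8 in *Ago2* null and 5 in *Dicer* KO, 2, 1 and 1 were called lower and none higher. Some markers went the other way in level. *Inha*, an inhibin subunit gene, had 0.419 to 0.93 CPM in *Ago2* fl/fl, 1.34 to 1.6 in *Ago2* ADH and 1.31 to 1.47 CPM in *Ago2* null libraries. In *Dicer* KO it had 0.0325 to 0.285 CPM, against 0.199 to 0.572 CPM in *Dicer* WT libraries. *Hsd17b1* had 0.241 to 0.371 CPM in *Ago2* fl/fl, 0.439 to 1.1 in *Ago2* ADH and 0.21 to 0.232 CPM in *Ago2* null libraries. *Inhba* had 0.207 to 0.672 CPM in *Dicer* WT and 0.585 to 1.28 CPM in *Dicer* KO libraries. Of the 10 oocyte markers 4 were called higher and 3 lower in *Ago2* ADH, 4 and 2 in *Ago2* null, and 1 and 3 in *Dicer* KO oocytes. The shares called over all transcripts are given above. The part of these properties in the results was not tested.

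The other genes of the pathway were taken as 50 genes in 4 lists, of which 49 were tested in each comparison. Of these 12 rose and 9 fell in *Ago2* ADH oocytes, 9 rose and 9 fell in *Ago2* null, and 7 rose and 7 fell in *Dicer* KO oocytes. Their median log2 fold changes were 0.01, -0.10 and -0.05. The called share of the 49 was 42.9%, 36.7% and 28.6%, beside the 40.7%, 37.2% and 34.5% of all transcripts given above.

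Among 15 genes of precursor export, tailing and turnover, 3 rose in each comparison, and the 3 were *Xpot*, *Tsnax* and *Ran*. Over all transcripts 20.5%, 18.1% and 16.7% were called higher. The called share of the 15 in either direction was 33.3%, 26.7% and 26.7%, beside 40.7%, 37.2% and 34.5% of all transcripts. In *Ago2* ADH oocytes 2 fell, *Zc3h12a* (log2 fold change -0.71) and *Xrn2* (-0.24), in *Ago2* null 1, *Xrn2* (-0.33), and in *Dicer* KO 1, *Lin28a* (-0.36), of which *Lin28a* encodes a let-7 precursor binder. *Ran*, the GTPase that loads exportins with cargo, had a level of 49.4 ± 3.68 CPM in *Ago2* fl/fl against 135.9 ± 11.9 in *Ago2* ADH and 144 ± 7.33 CPM in *Ago2* null, and of 35.7 ± 3.64 CPM in *Dicer* WT against 71.3 ± 8.67 CPM in *Dicer* KO libraries. Its log2 fold changes were 1.51, 1.58 and 0.99 (adjusted p of 1.83e-12, 1.28e-11 and 8.02e-08, edgeR). *Tsnax* encodes translin-associated factor X, which with translin forms the C3PO nuclease that removes cut passenger strands. Its log2 fold changes were 1.71, 1.84 and 1.67 (adjusted p of 7.14e-14, 9.27e-13 and 4.13e-14, edgeR). *Xpot*, the tRNA exporter and a relative of *Xpo5*, rose by 2.66, 2.74 and 1.36 from low levels (0.846 CPM in *Ago2* fl/fl), the last at an adjusted p of 0.011 without *Dicer* KO replicate 3. *Xpo5*, whose product uses RAN too, was called in none of the 3.

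Among 14 cofactors of primary miRNA cutting, 4 rose and 3 fell in *Ago2* ADH, 4 rose and 2 fell in *Ago2* null and 2 rose and 3 fell in *Dicer* KO oocytes. The called share was 50%, 42.9% and 35.7%, beside 40.7%, 37.2% and 34.5% of all transcripts. *Srrt* encodes ARS2, which links capped primary miRNAs to the Microprocessor. It had log2 fold changes of 0.94, 1.01 and 0.68 (adjusted p of 1.8e-07, 7.92e-07 and 0.000132, edgeR). *Cdc5l*, a splicing factor that binds the Microprocessor, rose by 1.27 and 1.42 and *Ncbp1*, the large cap-binding subunit, by 0.83 and 1.11 in *Ago2* ADH and *Ago2* null oocytes. The *Ncbp1* call in *Ago2* null had an adjusted p of 0.0102 without *Ago2* null replicate 2. In *Dicer* KO they had 0.59 and 0.00 (adjusted p of 0.177 and 0.996). *Ncbp2*, the small cap-binding subunit, fell in all 3 groups, with log2 fold changes of -0.65, -0.49 and -0.72 (adjusted p of 1.86e-07, 4.82e-05 and 1.7e-06, edgeR). The splicing factor gene *Srsf3* fell in all 3 as well, with -0.58, -0.61 and -0.53 (adjusted p of 4.65e-07, 4.75e-06 and 2.78e-05).

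Of 14 other dsRNA-binding protein genes 13 were tested. In *Ago2* ADH oocytes 4 rose and 2 fell, in *Ago2* null 2 rose and 3 fell, and in *Dicer* KO 2 rose and 2 fell. The called share was 46.2%, 38.5% and 30.8%, beside 40.7%, 37.2% and 34.5% of all transcripts. *Eif2ak2* encodes PKR, the dsRNA sensor that PACT can activate, and rose by 1.07 on the log2 scale with *Ago2* ADH and by 0.98 with *Ago2* null, from 1.92 ± 0.348 CPM (n = 3). The first call was lost without *Ago2* fl/fl replicate 1 or *Ago2* ADH replicate 1 or 3 (adjusted p of 0.0114 to 0.0215) and the second without *Ago2* null replicate 2 (0.0169) and with all 5 groups in one fit (0.0177). *Adad2*, a germ cell relative of the RNA-editing enzymes, rose by 1.04 in *Ago2* ADH oocytes and had 0.82 in *Ago2* null and 0.76 in *Dicer* KO (adjusted p of 0.0136 and 0.0933, edgeR). *Stau2*, an RNA transport factor, rose by 0.44 in *Ago2* ADH and 0.45 in *Dicer* KO and had 0.27 in *Ago2* null oocytes (adjusted p = 0.0113). *Strbp*, a spermatid dsRNA-binding protein, rose in all 3 groups, by 0.43, 0.39 and 0.40. *Zfr*, a zinc finger dsRNA binder, fell in all 3 groups, with log2 fold changes of -0.35, -0.45 and -0.23. *Son*, a splicing factor gene, fell in *Ago2* ADH (-0.19) and *Dicer* KO (-0.24) and had -0.19 in *Ago2* null oocytes (adjusted p = 0.0127).

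Of 7 Argonaute and GW182 genes 1 rose and 2 fell in *Ago2* ADH, 3 fell in *Ago2* null and 1 fell in *Dicer* KO oocytes. The called share was 42.9%, 42.9% and 14.3%, beside 40.7%, 37.2% and 34.5% of all transcripts. *Ago2* fell by 0.87, 1.95 and 0.56 on the log2 scale. *Ago3* had 114.7 ± 4.09 CPM in *Ago2* fl/fl and fell by 0.23 in *Ago2* ADH (adjusted p = 0.00123) and 0.26 in *Ago2* null oocytes (0.00244, edgeR). Those calls were lost without *Ago2* fl/fl replicate 2 (adjusted p of 0.0149 and 0.0275), and the latter also without *Ago2* null replicate 1 (0.0133) and with the replicate block (0.0113). In *Dicer* KO oocytes *Ago3* had a log2 fold change of -0.23 (adjusted p = 0.0207), past the threshold in 5 alternatives at the same FDR (0.00177 to 0.00882). The mean levels of *Ago1* and *Ago4* were 0.925 to 2.16 CPM in all groups, and neither was called, although *Ago4* was in *Dicer* KO without *Dicer* KO replicate 2 (adjusted p = 0.00902). *Tnrc6a* rose by 0.35 in *Ago2* ADH and *Tnrc6b* had -0.37 in *Ago2* null oocytes (log2 fold changes), both GW182 proteins that silence with Argonautes. The *Tnrc6a* call was lost without *Ago2* fl/fl replicate 1 or 2 or *Ago2* ADH replicate 1 or 3 (adjusted p of 0.0209 to 0.0476), with all 5 groups in one fit (0.032) and with library totals (0.0185). In the other groups *Tnrc6a* had 0.23 and 0.28 (adjusted p of 0.0817 and 0.0618), and the change of *Tnrc6b* was -0.12 in *Ago2* ADH (0.1) and 0.10 with *Dicer* KO (0.278).

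**Figure D4:**
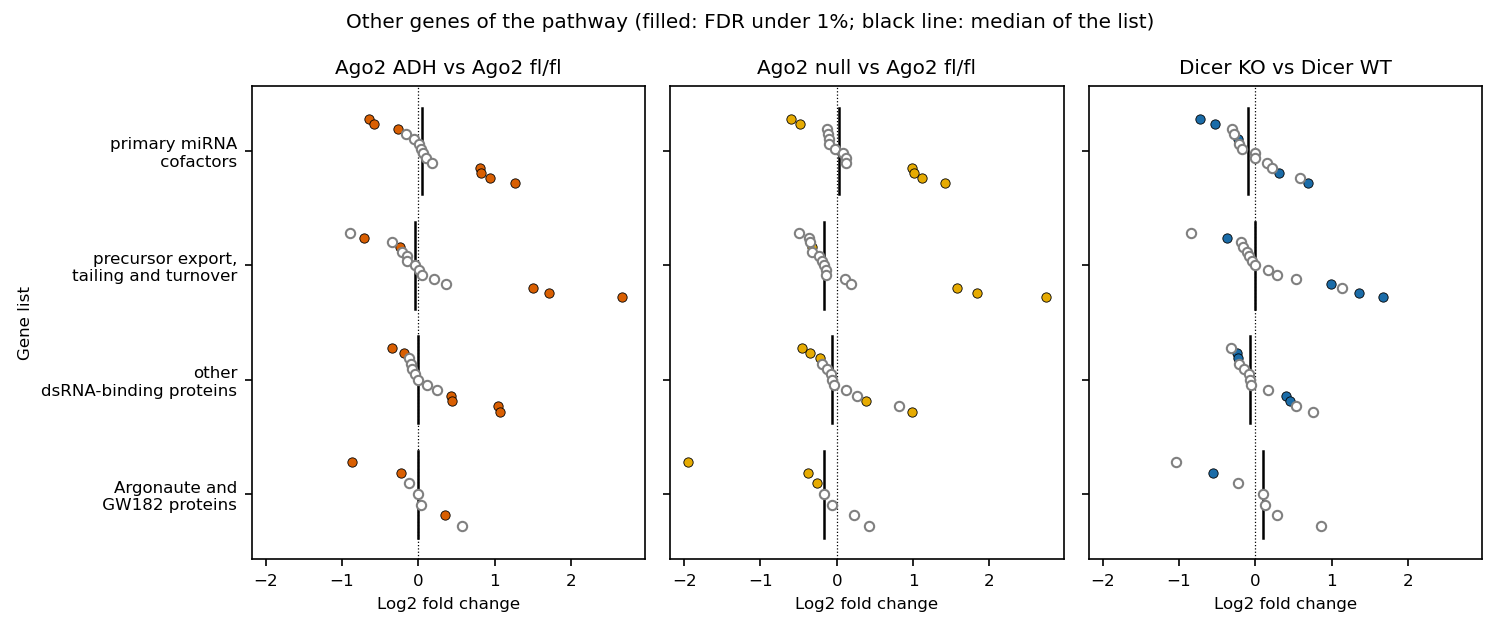
Log2 fold change (x axis) of the other pathway genes in 4 lists (y axis) for the 3 comparisons. Each point is a gene, filled where it passes an FDR of 1%, and black lines are list medians, which lie between -0.17 and 0.10. The 3 filled points at the right of the export, tailing and turnover list are *Ran*, *Tsnax* and *Xpot*.

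The genes most like each member were found by Pearson's r of log2 CPM, centred within each series, over the 14 libraries, among 7190 genes with a mean of at least 10 CPM. The libraries are shared by all genes, and differences between the genotypes of a series enter r. *Dicer1* was most like *Dppa2* (r = 0.996), *Polr3f* (0.996) and *Dhtkd1* (0.992). *Drosha* was most like *Hdac9* (0.939), *Rnf24* (0.923) and *Nsf* (0.92), *Tarbp2* like *Isca1* (0.959), *Nanos1* (0.919) and *Atp6ap1* (0.916), and *Xpo5* like *Erc1* (0.916), *Lgr6* (0.895) and *Zfp653* (0.895). *Dgcr8* had *Srpr* (0.887), *Tbccd1* (0.865) and *Ubap1* (0.864), and *Prkra* had 2310061I04Rik (0.895), *Ndufs5* (0.878) and *Bcas2* (0.862). *Prkra* itself lay at 0.0477 to 0.985 CPM, below the 10 CPM asked of the genes it was compared with.

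The promoters of the 6 genes, taken from RefSeq on GRCm38 as 250 bases before to 50 after the start, differed in CpG content. The *Dicer1* window lies at the start of the full-length transcript, not at that of the shorter form that oocytes mainly use. The *Tarbp2* window (chr15:102517942-102518241) lies before the start of the counted transcript at 102518459. *Dicer1* had 49 CpG, *Dgcr8* 43, *Xpo5* 40, *Drosha* 37, *Tarbp2* 21 and *Prkra* 16, against a median of 7 and an upper quartile of 20 over 32851 promoters, so *Prkra* lay below that quartile and *Tarbp2* next to it. The letters CCAAT, read on both strands, stood in 37.4% of all promoters. They stood 4 times in *Dgcr8*, 3 times in *Drosha* and *Tarbp2* and 1 time in *Dicer1*, and not in *Xpo5* or *Prkra*. The TATA letters TATAAA, found in 13.6% of promoters, stood in none of the 6. The GC box letters GGGCGG, on both strands, stood in 35.7% of all promoters, and 5 times in *Prkra*, 3 times in *Tarbp2*, 2 times each in *Dicer1* and *Dgcr8*, 1 time in *Xpo5* and not in *Drosha*.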

How the data were processed

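The authors deposited whole read counts for each library and RefSeq transcript, not normalized. The authors made amplified cDNA from lysed oocytes, sequenced paired-end reads, aligned them to mm10 (GRCm38) with TopHat, keeping up to 100 places for a read, and counted with HTSeq 0.6.1 without regard to strand. The TopHat version differs between the submitters' processing notes (2.0.7) and the study's methods and is not used here. Those methods give separate alignment settings by read length and do not say which libraries had which length. A separate tally holds alignments of reads with several places. Counts of a gene with close copies, such as *Ran* with its pseudogenes, are uncertain. Reads are counted on every transcript they fit, and amplified reads are not independent molecules, so the floor covers counting error only. Samples were grouped by the GEO labels, which give 2 *Ago2* null libraries. By the study's methods the replicates were separate collections of oocytes pooled from several animals.

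RefSeq and GENCODE paired 26081 and 113 IDs with symbols, and 301 stayed without one. The no_feature tally was 11.0% to 17.5% of counts and was left out. Levels are CPM on TMM-scaled totals over all 14 libraries. Each comparison was fitted on its own libraries with edgeR 4.0.16 (R 4.3.3), after filterByExpr (minimum count 10, minimum total 15), TMM and the quasi-likelihood test, with Benjamini-Hochberg adjustment over all transcripts at an FDR of 1%. The standard error is the absolute log2 fold change over the square root of F. On counts simulated for *Ago2* ADH against *Ago2* fl/fl (18835 transcripts), 74 of 100 changes of 1 and 88 of 100 changes of 2 on the log2 scale were recovered, with 1 false call. No other transcript was changed there, a far smaller share than the 40.7% called in the data. The recovery therefore does not describe the real fits. Alternatives changed 1 choice at a time. They were an FDR of 5%, DESeq2 1.42.0, RLE size factors, a filter that was dropped or raised to 10 counts per library, a table with 1 transcript per gene, a fit over all 5 groups, a block for the replicate number, and the loss of each single library. Library totals without scaling factors were added for the comparisons after seeing the data. Chi-square per degree of freedom between replicates was at least 6.54, so replicates differed by more than sampling noise and each was counted. The 6 genes and the lists of other genes and markers were chosen with earlier results of these data known, and those lists have no test of their own. In each list the 3 called genes with the largest absolute log2 fold change and a mean of at least 100 normalized counts are named, with *Ago1* to *Ago4*. *Zc3h12a*, *Xrn2* and *Lin28a* were named after their values were seen. Python 3.11.15, numpy 2.4.6, pandas 2.3.3 and scipy 1.17.1 were used for the rest.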

Additional observations from a re-analysis of the deposited data

Results flagged for a closer look

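For 3 of the 6 genes the effect of a genotype differed between the *Ago2* and the *Dicer* series. The test was that of the difference itself, edgeR's interaction term. For *Ago2* ADH it called 1 of the 6 genes and 3.55% of all transcripts tested. For *Ago2* null it called 3 of the 6 and 3.01% of transcripts. For *Dicer1* the log2 fold change was lower by 0.63 in *Ago2* ADH (value -0.63) and by 0.69 in *Ago2* null oocytes (-0.69) than in *Dicer* KO oocytes. For *Drosha* and *Tarbp2* the change in *Ago2* null oocytes lay 0.42 and 0.60 above that in *Dicer* KO oocytes. Each of these 2 calls held in 3 of 11 fits that left out 1 library. For *Ago2* ADH neither gene was called (edgeR adjusted p of 0.0147 and 0.112). Since the series differ in sequencing run and each *Ago2* genotype had its own lane, genotype and lane cannot be told apart here.

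Signal in the tallies that the comparisons did not use was higher in each mutant group than in its controls, with no overlap. Alignments with several places per transcript count averaged 1.61 in *Ago2* ADH and 1.61 in *Ago2* null against 0.572 in *Ago2* fl/fl libraries, and 1.03 in *Dicer* KO against 0.458 in *Dicer* WT libraries. The share of counts outside transcripts averaged 15.4% in *Ago2* ADH, 15.5% in *Ago2* null and 15.8% in *Dicer* KO, against 11.2% in *Ago2* fl/fl and 12.7% in *Dicer* WT libraries.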

How the results depend on the processing

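The count of called genes among the 6 kept its value or stayed within 1.5 times of it in 78 of 99 alternatives. In *Ago2* ADH oocytes 1 became 2 at an FDR of 5%, with DESeq2, with no filter, with the replicate block and with library totals, and it was 1 to 2 when 1 library was left out (2 without *Ago2* ADH replicate 1). In *Ago2* null oocytes 1 became 3 at an FDR of 5% and 2 with no filter or library totals, and it was 1 to 3 with 1 library left out (3 without *Ago2* null replicate 1). In *Dicer* KO oocytes 3 became 4 at an FDR of 5% and 2 with any library left out or with the block. For the difference between *Ago2* ADH and *Dicer* KO 1 became 2 at an FDR of 5%, with DESeq2, RLE normalization or library totals, and for that between *Ago2* null and *Dicer* KO 3 became 1 with the block and 1 to 3 with 1 library left out (1 without *Ago2* fl/fl replicate 2 or 3, either *Ago2* null library, or *Dicer* KO replicate 1 or 2). The count of called related genes moved by less than 1.5 times in 44 of 44 alternatives. The cause of these shifts was not tested.

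Values near 0 changed sign. The log2 fold change of *Tarbp2* in *Ago2* ADH was -0.00104 with DESeq2, -0.000938 with RLE, -0.00939 with no filter, -0.00393 with 1 transcript per gene, -0.0463 with all groups, -0.00128 with the block, -0.0436 with library totals and -0.0542 to 0.068 with 1 library left out. The same range was -0.0118 to 0.146 for *Prkra* between *Ago2* ADH and *Ago2* null, and, for the difference between *Ago2* ADH and *Dicer* KO, -0.215 to 0.183 for *Dgcr8* and -0.0623 to 0.0822 for *Xpo5*. *Ago1* had 0.00814 in *Ago2* ADH with at least 10 counts in every library, 0.0242 with the block, -0.193 to 0.251 with 1 library left out, and -0.811 to 0.28 in *Ago2* null.

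Libraries with the same replicate number did not deviate together (r of -0.0852 to 0.0426), which does not show whether they shared a collection. The block made *Dgcr8* a call in *Ago2* ADH (adjusted p = 0.00824) and *Tarbp2* none in *Dicer* KO (0.017). Library totals moved the median of all transcripts to -0.04 in *Ago2* ADH, -0.02 in *Ago2* null and -0.07 in *Dicer* KO. *Prkra* had 2 to 57 counts, and *Ago2* null has 2 libraries, so without either the other is assumed to vary like the rest.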
